A study of Mus musculus with 25 samples.

Results

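The interferon-induced GTPase genes followed here were Irgm1, Irgm2, Igtp, Iigp1, Gbp2, Gbp3 and Gbp7, 7 of the 21900 protein-coding genes with a position in the RefSeq annotation of GRCm38.p6 (mm10). A pair of 1 kb genome bins counted for a gene if at least 1 of its bins overlapped the span of the gene extended by 5 kb on each side (the gene window). By this rule the genes took part in 327 of the 121571 bin pairs (loops) that the deposited tables list in any library, and in 115 of the 28033 listed in all 6 libraries (shared loops). The genes were chosen with the contact and coverage counts of these libraries known, so their values are a description, and no p is given for them. CD8+ T cells from spleens of C57BL/6J mice were studied by HiChIP for H3K27ac, a histone mark of active promoters and enhancers, in 6 libraries. In this assay, neighbouring DNA ends in fixed nuclei are ligated, marked chromatin is pulled down, and each ligated read pair is a contact between its bins. The mutant libraries are labelled Intron (intron deletion) or Upstream (upstream deletion), for CRISPR deletions in the super-enhancer of Il2ra, and the others WT (wild type); Il2ra encodes CD25, the alpha chain of the IL-2 receptor. The labels give no position for either deletion and no number of animals or mutant lines. All cells were pre-activated, by the labels' protocol for 2 days with a rest of 4 h, and were then treated with IL-2 or not treated (control). No source used here gives the dose or time of IL-2 in these libraries. Each genotype and treatment had 1 library, hence 2 libraries per genotype and 3 per treatment. No condition was repeated, so standard errors (SE) and calls rest on the spread left after additive effects of genotype and treatment over the 6 libraries, and this spread may be technical.

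Interferon-gamma strongly induces both families of these genes in most mouse cells. Immunity-related GTPases (IRG proteins) and guanylate-binding proteins (GBPs) gather on the vacuoles in which intracellular bacteria and parasites live and help to break them. Among the IRG proteins, Irgm1, Irgm2 and Igtp (also called Irgm3) sit on the membranes of the cell itself and keep effector IRG proteins inactive there, whereas Iigp1 (Irga6) and the Tgtp proteins (Irgb6) are effectors. Gbp2, Gbp3 and Gbp7 are members of the GBP family. In mice the IRG genes lie in clusters, and Irgm1 is known to be needed for the survival of activated CD4+ T cells.

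The promoters are shown because most loops described below have an anchor at or near a start of these genes, except for Gbp2, which has no listed loop and is shown as a family member. RefSeq promoter windows of GRCm38.p6, which reach from 250 bases before to 50 bases after the annotated start, were matched by symbol for 6 of the 7 genes, with 7 entries; Gbp3 has a further entry with no match to the first motif, and its printed one starts inside the gene span used here. Windows were searched on both strands for the core of the interferon-stimulated response element, written GAAANNGAAA, and for the gamma-activated site of interferon-responsive promoters, written TTCNNNGAA. The first was in the windows of all 6 genes, against 3.44% of 32851 RefSeq promoter windows of the same length. The second was in those of Gbp7, Igtp and Irgm2, against 8.3%. The last 120 bases before the start are printed 5' to 3' in the direction of transcription, and capitals mark the response element core, printed as its reverse complement where it lies on the opposite strand. No match overlapped a match of the other motif.
Irgm1 (chr11:48871421-48871540, minus strand): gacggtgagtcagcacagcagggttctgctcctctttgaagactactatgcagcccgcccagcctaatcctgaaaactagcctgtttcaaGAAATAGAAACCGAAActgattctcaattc
Igtp (chr11:58199436-58199555, plus strand): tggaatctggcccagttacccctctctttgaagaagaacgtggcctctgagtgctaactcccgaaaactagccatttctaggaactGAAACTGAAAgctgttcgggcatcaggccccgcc
Irgm2 (chr11:58214857-58214976, plus strand): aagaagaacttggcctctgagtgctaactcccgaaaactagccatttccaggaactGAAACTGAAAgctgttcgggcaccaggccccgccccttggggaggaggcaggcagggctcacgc
Gbp2 (chr3:142620543-142620662, plus strand): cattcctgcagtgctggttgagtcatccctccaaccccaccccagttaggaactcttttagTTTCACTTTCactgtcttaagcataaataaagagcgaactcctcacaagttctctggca
Gbp3 (chr3:142559924-142560043, plus strand): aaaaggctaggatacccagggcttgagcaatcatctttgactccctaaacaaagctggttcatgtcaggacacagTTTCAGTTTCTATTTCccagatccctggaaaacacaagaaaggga
Gbp7 (chr3:142530216-142530335, plus strand): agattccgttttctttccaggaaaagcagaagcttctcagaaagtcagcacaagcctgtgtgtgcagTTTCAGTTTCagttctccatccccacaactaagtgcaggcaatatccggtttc

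Irgm1 and Gbp3 hold overlapping cores, visible as longer runs of capitals. The promoters of Igtp and Irgm2 are near copies, with 247 identical bases in 271 aligned columns (91.1%) and an identical stretch of 61 bases. No source used here says whether the authors' alignment kept reads that match both copies, so read counts at these starts are uncertain between Igtp and Irgm2. Irgm1 aligned with either of them over 52 columns only, 78.8% of them identical. A match to a motif is a description of these letters and not a shown binding site.

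The 6 tables listed 38879 to 94922 loops each, with 1314137 to 3596995 contacts in all, fewest for the intron deletion without IL-2 and most for WT with IL-2. No loop with fewer than 20 contacts is listed, so that a pair missing from a table may still have contacts. No source used here gives the other thresholds for listing, so a missing pair may also have 20 contacts or more. The value of 19 that some alternatives below give to unlisted pairs is thus a setting and not a known upper bound. At Il2ra itself the mutant labels were checked by counting bins with a listed loop. In the 25 kb before the gene, the IL-2 and control libraries had 15 and 5 such bins for the intron deletion, 8 and 5 for the upstream deletion, and 21 and 19 for WT, so that this count does not tell the deletions apart. Inside the gene they had 3 and 2 for the intron deletion, 23 and 22 for the upstream deletion, and 26 and 23 for WT, and there the intron deletion stood apart. All 6 markers of CD8 T cells (Cd8a, Cd8b1, Cd3d, Cd3e, Cd3g and Cd247) had listed loops in every library. None of 3 erythroid markers had one, and Ms4a1, Pax5, Ncr1, Klra8, Lyz2, Csf1r and Itgam had none either. Of the B cell, NK cell and myeloid markers, Cd79a, Klrb1c, Cd68 and Spi1 had loops in every library, as did Foxp3 of the regulatory T cells; Cd4 and Zbtb7b had loops in 5 libraries and Cd79b in 2. Some markers differed together with the GTPase genes: in the intron deletion over WT the log2 fold change was 0.56 ± 0.06 for Cd8a (edgeR adjusted p = 0.000133), 0.44 ± 0.07 for Cd8b1 (0.00118) and 0.39 ± 0.07 for the B cell marker Cd79a (0.00239). Over the upstream deletion these were 0.54, 0.40 and 0.27 (edgeR adjusted p = 0.000438, 0.00396 and 0.0251). The other 6 markers with shared loops passed in neither comparison. The part of other cell types in the results was not tested.

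The genes fell into those with strong loops and those with few or no listed loops. Irgm1 (gene ID 15944, chromosome 11, 48865245 to 48871420) had 159 loops in any library and 53 shared ones. Igtp (16145, chromosome 11, 58199556 to 58207592) had 121 and 52, and Irgm2 (54396, chromosome 11, 58214977 to 58222783) had 95 and 33. The windows of Igtp and Irgm2 have 60 of these loops in common, 23 of them shared, since the genes neighbour each other and many loops run between them. Gbp3 had 8 loops, Gbp7 10, Iigp1 1 and Gbp2 none, and no loop of these 4 genes was listed in all 6 libraries. A gene-window value, the sum of contacts over shared loops, could therefore be given for 3 of the 7 genes.

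Irgm1, which encodes a regulatory IRG protein, had more depth-scaled contacts over shared loops in both deletion genotypes than in WT. Over its 53 shared loops it had 2851 and 1826 contacts in the IL-2 and control libraries of the intron deletion, 1992 and 2130 in those of the upstream deletion, and 2197 and 2067 in WT. Scaled for depth by TMM, these were 2648 and 2367 with the intron deletion, 2100 and 2385 with the upstream deletion, and 1768 and 1936 in WT. The 4 scaled values of the deletion genotypes all lay above the 2 of WT. How many of all gene windows or loop sets have this order was not counted, here or below. The intron deletion was 1.36-fold over WT, a log2 fold change of 0.44 ± 0.08 (SE), and the upstream deletion 0.28 ± 0.08 on the log2 scale over WT. Between the intron and the upstream deletion the log2 difference was 0.17 ± 0.08. Over all listed loops the scaled contacts were 4800 and 2952 (IL-2 and control) with the intron deletion and 3082 and 3489 with the upstream deletion. WT had 3184 and 2951, so that both deletion genotypes overlapped WT there.

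**Figure D1:**
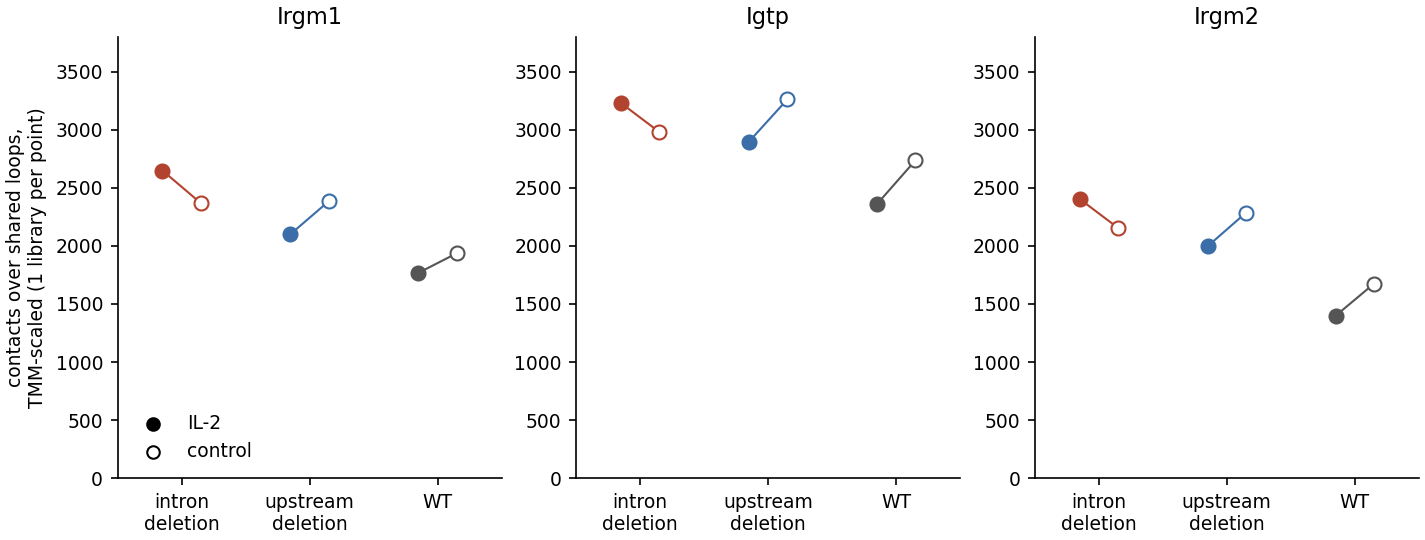
Contacts summed over shared loops (vertical axis, TMM-scaled) for Irgm1, Igtp and Irgm2 in each genotype; filled points are IL-2 libraries, open points control libraries, 1 library per point, joined within a genotype. For Irgm1 the 4 libraries of the deletion genotypes lie from 2100 to 2648, above the WT libraries at 1768 and 1936, and within the intron deletion alone the IL-2 point is the higher one.

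Irgm1 was contacted mainly across its own IRG cluster. The median shared loop spanned 214 kb and the longest 230 kb. Of the 53 shared loops, 34 ended in the window of Ifi47 (Irgd), 7 in that of Tgtp1, 3 each in those of Gm12185 and Trim7 and 2 in that of Tgtp2, windows that may overlap. Ifi47 and the Tgtp genes encode effector IRG proteins, and Trim7 encodes an E3 ubiquitin ligase. Rack1, Trim41, Gm5431, Zfp62 and Mgat1 were reached by loops that were not listed in every library.

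Loops to some of these partners are given in full. They are terms of the Irgm1 sum and add no separate evidence. The share of all loop sets in which deletion and WT values do not overlap was not counted. Irgm1 to Tgtp1 had 436 and 343 scaled contacts in the IL-2 and control libraries of the intron deletion, 262 and 296 in those of the upstream deletion, and 210 and 229 in WT. The 4 values of the deletion genotypes were above both WT values. Irgm1 to Ifi47 had 1634 and 1464 with the intron deletion, 1348 and 1511 with the upstream deletion, and 1160 and 1300 in WT, again with no overlap with WT. Irgm1 to Gm12185 had 180 and 156 with the intron deletion, 131 and 145 with the upstream deletion, and 104 and 103 in WT. Irgm1 to Tgtp2 had 99.04 and 122 with the intron deletion, 73.3 and 92.8 with the upstream deletion, and 56.7 and 64.8 in WT. Neither partner had a deletion value within the range of WT. On the other side, Irgm1 to Trim7 had 97.2 and 98.5 with the intron deletion, 74.3 and 81.8 with the upstream deletion, and 74.0 and 76.2 in WT, so that the upstream deletion overlapped WT. The bin 13 kb away on that side had 75.2 and 85.5 with the intron deletion, 89.0 and 103 with the upstream deletion, and 104 and 90.5 in WT. There the intron deletion lay below WT and the upstream deletion overlapped it.

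**Figure D2:**
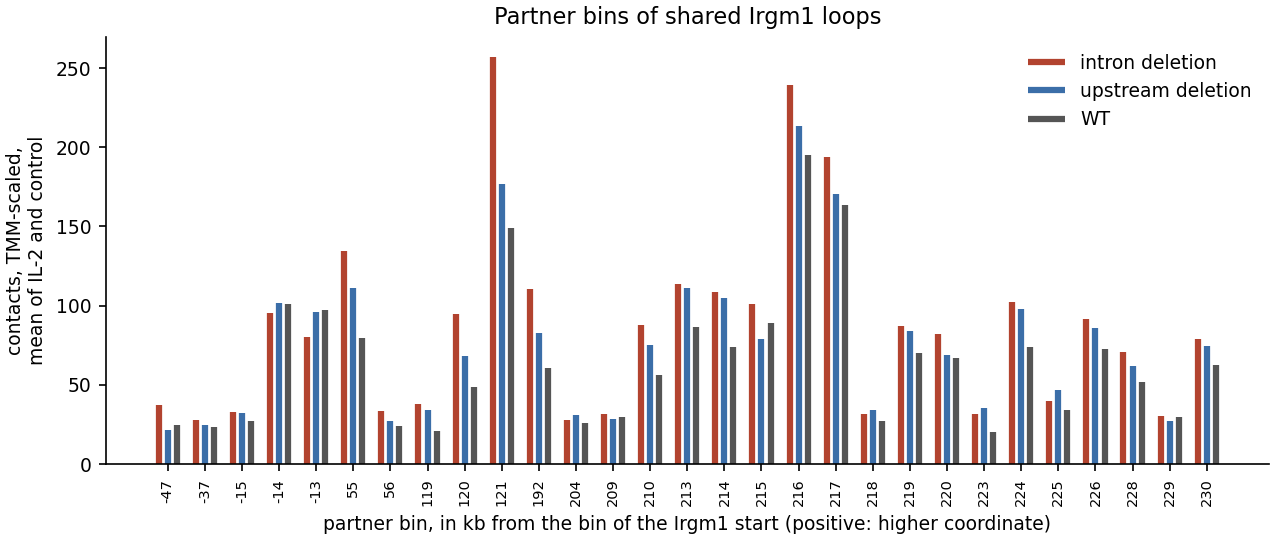
Scaled contacts of shared Irgm1 loops (vertical axis, mean of the IL-2 and the control library of a genotype) by the place of the partner bin (horizontal axis, distance in kb from the bin of the Irgm1 start, listed bins only and not to scale). The bin 121 kb away, in the Tgtp1 window, and the bins 216 and 217 kb away, in the Ifi47 window, are the tallest, with the intron deletion highest at each.

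The single loops of Irgm1 are the terms of its sum and add no separate evidence. Most of them, and the coverage at its start, were higher in the deletion genotypes. By the test over all 28033 shared loops, 13 of the 53 Irgm1 loops were called higher in the intron deletion than in WT and none lower, where 6.27% of all shared loops were called higher and 5.03% lower. In the upstream deletion over WT none of the 53 was called, where 0.0464% of all shared loops were called higher. The log2 fold change was above 0 for 47 of the 53 loops in the intron deletion over WT. It was above 0 for 43 in the upstream deletion over WT, and the medians were 0.40 and 0.20. The share of all shared loops above 0 was not counted. The coverage of the bin that holds the Irgm1 start was 9477 and 9148 scaled reads in the IL-2 and control libraries of the intron deletion, 8962 and 9303 in those of the upstream deletion, and 8154 and 8184 in WT. The deletion genotypes again lay above WT, by less than in the contacts. Of the 5 bins of the Irgm1 window listed in every library, 3 were called higher in the intron deletion than in WT. Of all 18580 shared bins 21.7% were called higher there and 24.5% lower. In the upstream deletion over WT none of the 5 bins was called, where 1.21% of all shared bins were called higher.

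Igtp and Irgm2, which also encode regulatory IRG proteins, had higher sums over shared loops in the deletion genotypes too. For them, as for Irgm1, this order was not kept over all listed loops. Irgm2 had 2404 and 2155 scaled contacts in the IL-2 and control libraries of the intron deletion, 1996 and 2285 in those of the upstream deletion, and 1397 and 1674 in WT. All 4 values of the deletion genotypes lay above those of WT. Its log2 fold change over WT was 0.58 ± 0.09 for the intron deletion and 0.48 ± 0.09 for the upstream one, and 0.10 ± 0.09 between the intron and the upstream deletion. Igtp had 3229 and 2979 with the intron deletion, 2897 and 3261 with the upstream deletion, and 2360 and 2736 in WT, again without overlap with WT. Its log2 fold changes were 0.29 ± 0.08, 0.27 ± 0.08 and 0.02 ± 0.08 for the same 3 comparisons. Over all listed loops Irgm2 had 3048 and 2391 scaled contacts for the intron deletion, 2429 and 2804 for the upstream deletion, and 2545 and 3080 for WT. Igtp had 4024 and 3132 for the intron deletion, 3436 and 3990 for the upstream deletion, and 3808 and 4337 for WT. For both genes the control library of WT was then the highest of all 6, and the ratio of the control libraries of the intron deletion and WT was 0.78 for Irgm2, against 1.29 over shared loops.

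Over all 3522 gene windows tested with edgeR, 9.45% were called higher in the intron deletion than in WT at an adjusted p below 0.05, and Irgm1, Igtp and Irgm2 were among them; nothing is read from this, since the genes were chosen on these counts. For the upstream deletion against WT 0.17% of windows were called, and for the intron against the upstream deletion 9.51%, in each case with none of the 3 genes, nor did DESeq2 call any there. DESeq2 called 2 of the 3 genes, not Igtp, in the intron deletion against WT. The call in the intron deletion over WT was lost for Irgm1 without the IL-2 library of WT, at 0.37, and with unlisted pairs set to 19 contacts, at 0.27. For Irgm2 it was lost with unlisted pairs set to 0 (0.44) or to 19 (0.13). For Igtp it was lost in several alternatives, among them leaving out the IL-2 library of the intron deletion (0.13), of the upstream deletion (0.29) or of WT (0.19) or the control library of WT (0.39). Without either or both libraries of the intron deletion, the upstream deletion was called higher than WT for all 3 genes. The log2 fold changes were 0.27 for Irgm1, 0.27 for Igtp and 0.48 for Irgm2. With the upstream deletion and WT alone, many more windows than the 0.17% above were called, as counted below. Nothing is read from these calls either.

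At the start of Irgm2, adjoining bins differed between the genotypes in opposite directions. The annotated start of Irgm2 lies 23 bases before the end of its bin, and that bin and the next are given together (the first and the second start bin). The first had 8798 and 8510 scaled reads of coverage in the IL-2 and control libraries of the intron deletion, 7810 and 8569 in those of the upstream deletion, and 5000 and 5542 in WT. The second had 662 in the IL-2 library of the intron deletion and anchored no listed loop in its control library; it had 1301 and 1428 in the upstream deletion, and 3720 and 4372 in WT. In the deletion genotypes the first bin was thus higher and the second lower, while both together had 9460 in the IL-2 library of the intron deletion, 9111 and 9997 with the upstream deletion, and 8719 and 9913 in WT. The second bin held 7.0% of the reads of both in the IL-2 library of the intron deletion, 14.3% in each library of the upstream deletion, and 42.7% and 44.1% in the IL-2 and control libraries of WT. The second bin is not among the shared bins, and none of its loops entered the sums over shared loops.

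**Figure D3:**
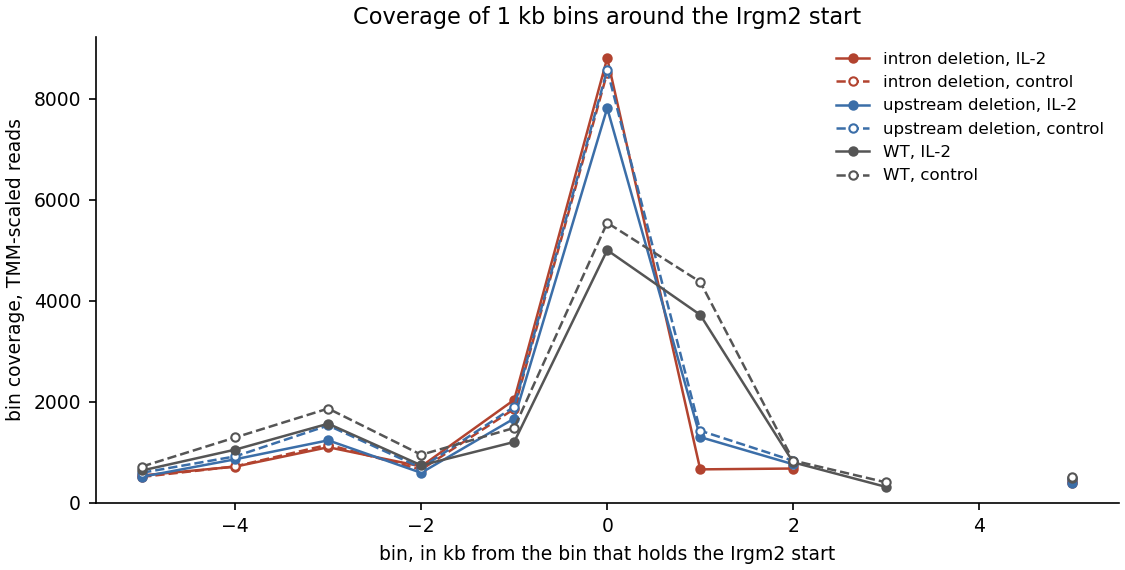
TMM-scaled coverage (vertical axis) of the 1 kb bins from 5 kb before to 5 kb after the bin that holds the annotated Irgm2 start (horizontal axis), 1 line per library; bins that anchor no listed loop in a library are left out and break its line. At 0 kb the deletion genotypes reach 7810 to 8798 against 5000 and 5542 in WT, and at 1 kb they have 662 to 1428 against 3720 and 4372 in WT.

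Loops of these bins differed in the same directions as their coverage. The 22 shared loops of the first Irgm2 start bin had log2 fold changes of 0.16 to 1.25 in the intron deletion over WT. Their median was 0.79, and 16 of them were called higher, where 6.27% of all shared loops were. In the upstream deletion 4 of the 22 were called higher than in WT, where 0.0464% of all shared loops were, and the median was 0.51. These loops share 1 bin, belong to genes chosen on these counts, and have their reads in the coverage of that bin. Their calls and their direction are therefore a description and add no separate evidence. The loop between the bins of the Igtp and Irgm2 starts, 15 kb apart, had 266 and 158 contacts in the IL-2 and control libraries of the intron deletion, 231 and 230 in those of the upstream deletion, and 97 and 121 in WT. Its log2 fold change over WT was 1.23 ± 0.15 for the intron deletion and 1.35 ± 0.14 for the upstream one. The bins at the ends of this loop hold the near-copy promoters described above. The part of reads that match both copies was not tested. The loops of the second start bin to partners other than the Igtp start showed the reverse pattern in number. Of 22 such loops, 20 were listed in each WT library, with 713 contacts in the IL-2 and 766 in the control library, against 1 loop of 21 contacts in the control library of the upstream deletion and none in the other 3 libraries of the deletion genotypes.

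Loops from the start of Igtp to other partners did not share the higher values. The 27 such shared loops had 1305 and 1306 scaled contacts in the IL-2 and control libraries of the intron deletion, 1305 and 1432 in those of the upstream deletion, and 1343 and 1585 in WT. Their median log2 fold change was -0.20 for the intron deletion over WT and -0.15 for the upstream deletion over WT. In the intron deletion 2 of the 27 loops were called lower than in WT, where 5.03% of all shared loops were. A loop called lower joined the bin after the Igtp start to a bin 10 kb away, with 28 and 27 contacts in the intron deletion, against 26 and 27 with the upstream deletion and 60 and 60 in WT. The coverage of the bin of the Igtp start was 3757 and 3667 with the intron deletion, 4111 and 4515 with the upstream deletion, and 4607 and 5131 in WT, with every deletion value below both WT values. Of the 22 shared bins of both windows, 2 were called higher and 7 lower in the intron deletion than in WT. Of all 18580 shared bins 21.7% were called higher and 24.5% lower in that comparison. In the upstream deletion 1 was called higher than in WT, the first start bin of Irgm2, where 1.21% of all shared bins were.

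**Figure D4:**
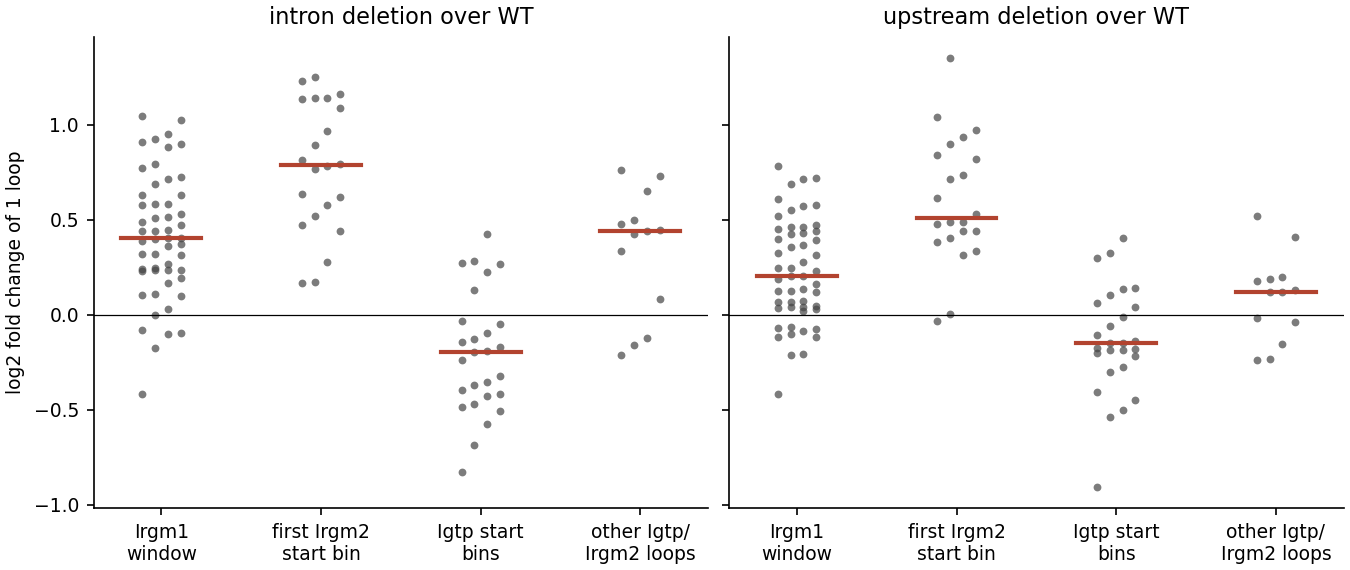
Log2 fold changes of single shared loops (vertical axis, 1 point per loop) in the intron deletion over WT (left) and in the upstream deletion over WT (right), by the anchor of the loop; red bars are medians. Loops of the first Irgm2 start bin have medians of 0.79 and 0.51, Irgm1 loops 0.40 and 0.20, and loops of the Igtp start bins -0.20 and -0.15; both panels share the WT libraries.

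By partner, the 21 shared loops from the Irgm2 window to that of Igtp had 1575 and 1405 scaled contacts in the IL-2 and control libraries of the intron deletion, 1391 and 1570 in those of the upstream deletion, and 996 and 1189 in WT. The 7 to Gm12250, which encodes the effector Irgb10, had 486 and 441 with the intron deletion, 321 and 346 with the upstream deletion, and 248 and 299 in WT. All deletion values were above WT in both sets. These sets are terms of the sums above and add no separate evidence. The 21 loops from Igtp to Gm12250 had 1121 and 1028 with the intron deletion, 944 and 988 with the upstream deletion, and 891 and 988 in WT, where the upstream deletion overlapped WT. The 15 from Igtp to Mrpl22, a mitochondrial ribosomal protein gene, had 816 and 766 with the intron deletion, 665 and 743 with the upstream deletion, and 628 and 683 in WT. The 14 inside the Igtp window had 580 and 630 with the intron deletion, 627 and 720 with the upstream deletion, and 672 and 843 in WT, so that there the intron deletion lay below WT.

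With every loop of both start bins of Irgm2 left out, which was tried only once the data had been seen, the intron deletion over WT had log2 fold changes of 0.02 for Igtp and -0.16 for Irgm2, and the upstream deletion 0.00 and -0.16, none of them called. Irgm1, which shares no loop with them, kept 0.44 in the intron deletion over WT, with its call. The coverage of all shared bins in the window gave -0.19 for Igtp, 0.31 for Irgm2 and 0.30 for Irgm1 in the intron deletion over WT.

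IL-2 and control libraries differed little in the contacts of the 3 genes, and not in the same direction in every genotype. Over the 6 libraries the log2 fold changes of IL-2 over control were -0.05 ± 0.07 for Irgm1, -0.09 ± 0.06 for Igtp and -0.10 ± 0.07 for Irgm2. None was called by edgeR or DESeq2, where edgeR called 3.55% of all windows. In the intron deletion the IL-2 library had 1.12 times the scaled contacts of the control library for Irgm1 (95% interval 1.05 to 1.19), 1.08 times for Igtp (1.03 to 1.14) and 1.12 times for Irgm2 (1.05 to 1.19). In the upstream deletion the ratios were 0.88 (0.83 to 0.94), 0.89 (0.84 to 0.94) and 0.87 (0.82 to 0.93) for the same genes. In WT they were 0.91 (0.86 to 0.97), 0.86 (0.82 to 0.91) and 0.83 (0.78 to 0.89). These exact binomial (Clopper-Pearson) intervals cover counting error only and compare single libraries.

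All 3 ratios were above 1 in the intron deletion and below 1 in the other genotypes. The genes were chosen on these counts, and Igtp and Irgm2 have 23 shared loops in common. The calls given next are thus a description, and nothing is read from the shares beside them. The term for the IL-2 response of the intron deletion against the mean response of the other genotypes was 0.32 ± 0.07 for Irgm1, 0.31 ± 0.06 for Igtp and 0.38 ± 0.07 for Irgm2, on the log2 scale. All 3 were called, where 3.8% of windows were, with 1 residual degree of freedom; DESeq2 called 4 windows and none of these genes. For the upstream deletion and for WT the same term called 0% and 0% of windows with edgeR (109 and 64 at an unadjusted p below 0.05) and none with DESeq2. Without the IL-2 library of the intron deletion the log2 fold changes of IL-2 over control were -0.16 for Irgm1, -0.19 for Igtp and -0.23 for Irgm2. Without its control library instead, they were -0.16, -0.19 and -0.23 as well. Either fit takes the IL-2 term from the upstream deletion and WT alone, so these values point to neither library. The control library of the intron deletion was the shallowest of the 6, and the part of depth in the IL-2 response of this genotype was not tested.

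The GBP genes gave weak loops near the listing limit. Gbp3 (55932, chromosome 3, 142560016 to 142573213) and Gbp7 (229900, chromosome 3, 142530336 to 142550151) together had 11 loops, of 20 to 30 contacts, none listed in more than 3 libraries, and 7 of them belong to both windows. Gbp3 had 53 and 26 listed contacts in the IL-2 and control libraries of the intron deletion, 20 and 94 in those of the upstream deletion, and 25 and 101 in WT, so that the control libraries of 2 genotypes had the most. Gbp7 had 73 and 26 with the intron deletion, 20 and 66 with the upstream deletion, and 100 and 74 in WT. Every Gbp3 loop was anchored at the bin of its start, the one bin of the GBP windows with coverage in all libraries. It had 1429 and 1535 scaled reads in the IL-2 and control libraries of the intron deletion, 1307 and 1983 in those of the upstream deletion, and 1361 and 1822 in WT. The IL-2 value was the lower one in each genotype, with a log2 fold change of -0.38 for IL-2 over control, which was not called. Each gene had 1 loop to the window of Gbp5, another GBP gene, and the other listed loops stayed within the windows of Gbp3 and Gbp7. Gbp2 (14469, chromosome 3, 142620663 to 142638008) anchored no listed loop in any library, which does not show that contacts were absent.

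Iigp1, the effector IRG gene (60440, chromosome 18, 60373616 to 60392634), had a single loop, of 28 contacts, in the IL-2 library of the intron deletion. It spanned 170 kb and ended in the window of Gm4951, another IRG gene. The other 5 libraries listed none, which leaves the contacts there unknown, so that no difference can be read from it.

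The other IRG genes with values were mostly the partners named above and share loops with Irgm1 or with Igtp and Irgm2. Irgm1 loops made up 7 of the 15 shared loops of Tgtp1, 34 of the 107 of Ifi47 and 2 of the 25 of Tgtp2. Igtp loops made up at least 21 of the 35 of Gm12250. These genes are thus not independent of the chosen ones, and their calls and p values are a description, not separate support. Of 18 further IRG and GBP genes 17 were matched and 5 had shared loops. Of these, 4 rose in the intron deletion over WT and none fell, where 9.45% of all windows were called higher, with a list median of 0.36 against -0.01 for all windows. DESeq2 called 4 of the 5 as well. Tgtp1 had a log2 fold change of 0.82 ± 0.11 (edgeR adjusted p = 0.000768), Tgtp2 0.57 ± 0.08 (0.000804), Gm12250 (Irgb10) 0.36 ± 0.08 (0.00845) and Ifi47 0.32 ± 0.07 (0.0118). Irgq had the smallest value, 0.01 ± 0.14. Tgtp1 and Tgtp2 also rose in the intron deletion over the upstream deletion, by 0.44 ± 0.11 (adjusted p = 0.0316) and 0.36 ± 0.08 (0.0154) with edgeR, but not with DESeq2. Tgtp1 and Tgtp2 are close copies of each other, and reads may be split between them. None of the 5 passed in the upstream deletion over WT or with IL-2, by edgeR or DESeq2, with 3 and 0 at an unadjusted p below 0.05 in edgeR.

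Genes of interferon signalling did not share one direction. Of 19 genes 16 had values; 3 rose and 1 fell in the intron deletion over WT, where 9.45% of all windows were called higher and 8.35% lower, and the list median was 0.04. DESeq2 called 1 of the 16 there and 1 with IL-2, where edgeR called 2. The interferon receptor gene Ifnar1 rose by 0.53 ± 0.10 (edgeR adjusted p = 0.00376), the kinase gene Jak1 by 0.33 ± 0.07 (0.0067) and the transcription factor gene Irf1 by 0.35 ± 0.08 (0.0106). The neighbouring receptor gene Ifnar2 fell by 0.26 on the log2 scale (adjusted p = 0.0161, edgeR). The lowest value was -0.37 ± 0.20 for Ptpn2, a phosphatase gene. With IL-2, Socs1, a feedback inhibitor of cytokine receptors, rose by 0.33 ± 0.06 (edgeR adjusted p = 0.0193), and Jak2 fell by 0.57 on the log2 scale (adjusted p = 0.0463, edgeR, 2 shared loops).

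Of 34 other interferon-induced genes, 13 had values, in 12 windows. In the intron deletion over WT 2 windows rose, Parp14 by 0.45 ± 0.10 (edgeR adjusted p = 0.00997) and that of Dtx3l and Parp9 by 0.35 ± 0.09 (0.017), all genes of ADP-ribosylation; 9.45% of all windows were called higher and 8.35% lower. DESeq2 called 1 of the 12 windows there and none with IL-2. One fell with edgeR, Ly6e, a surface protein gene, by 0.93 on the log2 scale (adjusted p = 4.25e-06, edgeR), and it was also lower in the intron than in the upstream deletion, at -1.07 ± 0.06 (edgeR adjusted p = 4.04e-06). Over its shared loops it had 1029 and 807 unscaled contacts in the IL-2 and control libraries of the intron deletion, against 1886 and 1991 with the upstream deletion and 2269 and 2116 in WT. With IL-2, Nlrc5, the regulator of MHC class I genes, rose by 0.27 ± 0.07 (edgeR adjusted p = 0.0489). In the upstream deletion over WT neither of these lists had a gene past the threshold with edgeR or DESeq2 (5 and 1 at an unadjusted p below 0.05 in edgeR), with medians of 0.11 and 0.11.

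Gene windows were ranked by Pearson r of log2 scaled contacts over the 6 libraries with the sum over the GTPase genes. The 5 highest of all windows that share no loop with these genes were Cd52, Ubxn11, Lrch4, Tlk1 and Sh3bgrl3. Their r was 0.989 to 0.995. The summed contacts of the 115 loops were 6553 and 5968 in the IL-2 and control libraries of the intron deletion, 5478 and 6177 in those of the upstream deletion, and 4458 and 5086 in WT. Cd52, a surface glycoprotein gene of lymphocytes, had 6703 and 6121 with the intron deletion, 5526 and 6406 with the upstream deletion, and 4710 and 5313 in WT. Cd52, Ubxn11 and Sh3bgrl3 all lie on chromosome 4 and may have loops in common with each other, and Tlk1 had 1 shared loop only.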

How the data were processed

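The authors used CASAVA, Bowtie2 2.2.6 and HiC-Pro with mm10 (GRCm38), as the submitters' processing notes list them. Their deposited tables have the layout of FitHiChIP output and hold whole-number contact counts per bin pair and coverage counts per bin, without normalisation. No listed pair had under 20 contacts. No source used here gives the caller's version or thresholds. The genes and lists were chosen with earlier results of these data known.

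Contacts of shared loops were summed per gene window, and genes with the same loops were joined. The test was edgeR 4.0.16 in R 4.3.3, by quasi-likelihood with TMM scaling, on genotype plus treatment with 2 residual degrees of freedom. Benjamini-Hochberg adjustment ran over all windows, loops or bins, with a threshold of 0.05, and the steps were tested on simulated data. Named genes were the 7 genes, their loop partners, list genes past the threshold, each list's extremes in the intron deletion over WT, and the 5 windows of most similar pattern. DESeq2 1.42.0 was an alternative. Another 19 samples, of ChIP-seq, did not enter.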

Additional observations from a re-analysis of the deposited data

Results flagged for a closer look

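For all 3 genes with shared loops, the interaction term of edgeR set the IL-2 response of the intron deletion above the mean response of the upstream deletion and WT. The genes were chosen on these counts, so the term describes these libraries and is no test of a difference between genotypes. The log2 difference was 0.319 for Irgm1, 0.385 for Irgm2 and 0.308 for Igtp, with 1 residual degree of freedom. Irgm2 and Igtp share 23 loops and are not independent of each other. DESeq2 called none of the 3, and the intron deletion library without IL-2 had the fewest contacts of the 6; the part of depth in this difference was not tested.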

How the results depend on the processing

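No paired analysis was possible because each genotype and treatment has 1 library and the labels number no replicates; the genotype term of the fit already sets IL-2 against control within each genotype. A replicate number in the deposited names was not used. Direction and side of the threshold held in 225 of the fold-change comparisons for Irgm1, Irgm2 and Igtp; 23 lost a call, 21 gained one and 22 changed sign. The causes were not tested. Each count below is of gene windows called with edgeR unless another unit is named.

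For IL-2 against control, 125 windows became 205 scaled by total listed contacts, 27 with DESeq2, 81 with at least 30 contacts per library, 0 and 20 with unlisted pairs set to 0 and to 19, 67 with no extension, 55 with 10 kb, and 0 by coverage (leaving out 1 library, 0 to 842). For the intron deletion against WT, 627 became 208 with DESeq2, 404 with at least 30 contacts, 311 with unlisted pairs at 0 and 1763 by coverage (213 to 1030). For the upstream deletion against WT, 6 became 16 with DESeq2 size factors, 0 by total contacts, 2 with DESeq2, 3 with at least 30 contacts, 0 with unlisted pairs at 0, 0 by coverage and 247 with only these genotypes (0 to 251). For the intron against the upstream deletion, 335 became 28 by total contacts, 97 with DESeq2, 200 with at least 30 contacts, 181 and 101 with unlisted pairs at 0 and 19, and 1377 by coverage (23 to 652). For the IL-2 response of the intron deletion, 134 became 215 with DESeq2 size factors, 280 by total contacts, 4 with DESeq2, 0 and 828 with unlisted pairs at 0 and 19, 69 with no extension and 1234 by coverage.

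Of single loops, IL-2 against control called 924, against 1630 by total contacts and 0 with DESeq2 (46 to 1825). The intron deletion against WT called 3166, against 5595 and 79 (494 to 3285), and the upstream deletion against WT 22, against 81, 2, and 84 with only these genotypes (3 to 86). The intron against the upstream deletion called 1575, against 629 and 38 (213 to 1900). Of bins, IL-2 against control called 0, against 9702 by total contacts and 2087 with DESeq2 (0 to 10125). The intron deletion against WT called 8592 (3815 to 12228), and the upstream deletion against WT 314, against 1126, 509, and 7545 with only these genotypes (1 to 7555). The intron against the upstream deletion called 7048, against 3560 by total contacts (3199 to 10966).

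Scaling by total contacts gave medians over all windows of -0.29 for IL-2, 0.35 for the intron deletion over WT, -0.39 for the IL-2 response of the intron deletion and 0.31 for that of the upstream deletion. Under it the IL-2 response of the intron deletion had values of -0.086 for Irgm1, -0.020 for Irgm2 and -0.097 for Igtp, and that of the upstream deletion 0.12, 0.18 and 0.20. These 6 of the sign changes came with the shift of all windows: relative to those medians the values were 0.31, 0.37 and 0.30, and -0.19, -0.13 and -0.11, with the signs first reported. With unlisted pairs at 19, Irgm1 had 0.035 for IL-2 over control, and Igtp -0.0100 for the intron deletion over WT and -0.014 over the upstream deletion. With unlisted pairs at 0, the IL-2 response of the upstream deletion at Irgm2 was 0.048. By coverage, Igtp had -0.19 for the intron deletion over WT, -0.067 for the upstream deletion over WT and -0.13 between the deletions, the last -0.054 with no extension. Without the loops of the Irgm2 start bins, Irgm2 had -0.16 for either deletion over WT (-0.16 and -0.16) and -0.0021 between them. Leaving out 1 library, the intron over the upstream deletion ranged from -0.10 to 0.28 at Irgm2 and from -0.14 to 0.17 at Igtp, lowest without the IL-2 library of the intron deletion and highest without its control library. IL-2 over control at Irgm1 ranged from -0.16 without either of those to 0.015 without the control library of the upstream deletion.

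Ratios of single libraries with unlisted pairs at 0 crossed 1 for Irgm1 at 1.08 (WT IL-2 over WT control) and 0.97 (upstream IL-2 over WT IL-2). For Irgm2 they were 0.78 (intron control over WT control), 0.95 and 0.91 (upstream over WT, IL-2 and control), and for Igtp 0.72, 0.90 and 0.92 in the same order. With unlisted pairs at 19, intron IL-2 over intron control was 0.9993 for Irgm2 and 0.997 for Igtp. No pair under 20 contacts is listed, which limits the GBP genes and Iigp1 most.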

Other observations

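The shift of coverage between the start bins of Irgm2 was set beside all 11466 pairs of adjoining bins with coverage in the 5 libraries other than that of untreated intron-deletion cells. The share of the second bin was 29.1 percentage points lower in the upstream deletion than in WT, with a value of -29.1 that ranked 1 by size, where the median size was 1.28 points and the 99th percentile 5.80. In the IL-2 libraries of the intron deletion and WT the difference was -35.7 points, rank 2, with a median size of 2.14. Of the 10 pairs with the largest shift in the upstream deletion, 5 lay between 58 and 60 Mb of chromosome 11, which holds 39 of the pairs. Those ranked 1 and 4 both contain the second start bin of Irgm2, and that ranked 9 adjoins them, so they are not separate places. The remaining pairs of that region overlapped H2bu2 and Mrpl55. Others of the 10 overlapped Ly6e, with a shift of 12.8 points, and Ifnar2, with 12.2. Those ranked 3, 7 and 10, on chromosomes 19, 15 and 16, overlapped no protein-coding gene, with shifts of -22.3, -12.6 and -12.1 points. For the IL-2 libraries of the intron deletion and WT, 3 of the 10 largest shifts lay in the same region of chromosome 11. The largest, of 42.2 points, lay on chromosome 17 and overlapped no protein-coding gene. These pairs were ranked after the values at Irgm2 were seen, and no cause was tested.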
